A study of Homo sapiens with 9 samples.

Results

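Imprinted genes are genes of which only the copy inherited from the mother, or only that from the father, is normally active. Described here are 10 of them, H19, IGF2, PEG10, PEG3, CDKN1C, MEST, SNRPN, NDN, PLAGL1 and GRB10, chosen by name, on 9 expression arrays of human leukemia cells. Every probe set annotated to one of these genes was taken, which gave 18 of 27306 probe sets and covered 6 of the 10 genes. No probe set was annotated to IGF2, PEG10, PEG3 or NDN in the annotation used, so these 4 genes were not analysed here.

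The arrays were of K562 and HEL cells, both established lines from human myeloid leukemias with erythroid and megakaryocytic features. Of the 6 K562 arrays, 2 were of untreated cells, and the others were of cells given 25 µM hemin, 50 µM hemin, 100 nM DAC or 5 nM PMA. The 3 HEL arrays were of untreated cells and of cells given 20 nM DAC or 5 nM PMA. Hemin, the oxidized form of heme, served to induce the erythroid program, and PMA, a phorbol ester that activates protein kinase C, the megakaryocytic one. DAC is decitabine, a cytidine analogue that traps DNA methyltransferases and so lowers DNA methylation. It was given as 3 pulses of 24 h each, and the cells were collected at 144 h from the start. PMA was given for 48 h, and no time is stated for hemin. The protocol shared by all samples names DAC at 50 and 100 nM and hemin at 50 µM alone, and the doses given here follow the sample titles. Only the untreated K562 cells have more than 1 array of the same condition. The labels do not say that these 2 were separate cultures, so their spread may be technical alone. In the main tests both hemin doses were 1 group, so the difference between the doses also counted as spread. In tests over both lines, a difference between the lines in the response to a treatment counted as spread too. No p-value therefore rests on known separate cultures of the same condition.

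The mark that tells the parental copies apart is DNA methylation, laid down in the germ line at control regions and kept at each cell division by DNMT1 with UHRF1. H19 and CDKN1C are normally expressed from the maternal copy, MEST, SNRPN and PLAGL1 from the paternal copy, and GRB10 from either copy depending on tissue and isoform. An expression array reads the sum of both copies, and DNA methylation was not measured, so no value below tells the copies apart. In bulk RNA, fewer cells expressing a gene and less RNA per cell cannot be told apart either.

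The values are log2 expression values made with GCRMA, so that a difference of 1 is 2-fold. The lowest value on every array was 2.25, the array medians lay between 6.67 and 6.78, and values below 5 were treated as having no order. A probe set was kept where it reached 5 on at least 1 array, which all 18 probe sets did. The 2 untreated K562 arrays were over 2-fold apart for 828 of 9885 genes (8.38%). Among 21850 kept probe sets, 17.3% held exactly equal values of 5 or more on at least 2 arrays. Of 15 erythroid and megakaryocytic markers 11 were kept, and 9 to 11 of them reached 5 on each array. The regulators GATA1, TAL1 and NFE2 were between 9.19 and 12.32 throughout, while the platelet factor PF4 was at 2.25 on every K562 array, ITGA2B at 2.56 with 50 µM hemin and the globin HBZ at 4.38 in HEL with PMA. Of 14 markers of other cell types, 7 reached 5 on some array, with a mean over these 7 between 6.23 and 6.75 in HEL and between 7.29 and 8.93 in K562. They included EPCAM and KRT18, which are epithelial, at 9.20 or more on every K562 array, and CD3D, at 8.51 or more there. KRT18 was high in HEL too, at 9.41 or more. PECAM1 went the other way, at 10.88 or more in HEL and 8.91 or less in K562. The part of these markers in the differences between the lines was not tested.

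The sequences before the starts of 3 of these genes are shown because each gene was near the lowest value, or low, on some arrays and high on others, and because CpG sites, where DNA methylation lies, can be read from them. Each is the 250 bases before a RefSeq start in build GRCh38.p14, 5′ to 3′ on the strand of the gene, with every CpG site in capitals. The H19 window is chr11:2001267-2001516 on the minus strand. The MEST window is chr7:130491835-130492084 on the plus strand, before the last of 5 listed starts. The SNRPN window is chr15:24954737-24954986 on the plus strand, before the start that SNRPN shares with SNURF.
H19: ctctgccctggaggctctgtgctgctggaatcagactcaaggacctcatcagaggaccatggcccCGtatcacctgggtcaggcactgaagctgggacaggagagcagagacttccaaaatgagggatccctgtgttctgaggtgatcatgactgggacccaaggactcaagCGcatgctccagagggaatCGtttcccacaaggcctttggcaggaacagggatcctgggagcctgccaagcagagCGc
MEST: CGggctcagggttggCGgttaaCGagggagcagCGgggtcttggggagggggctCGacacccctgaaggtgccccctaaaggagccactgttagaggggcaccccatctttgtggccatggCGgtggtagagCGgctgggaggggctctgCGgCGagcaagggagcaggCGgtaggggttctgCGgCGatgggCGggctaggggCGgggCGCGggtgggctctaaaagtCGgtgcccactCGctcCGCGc
SNRPN: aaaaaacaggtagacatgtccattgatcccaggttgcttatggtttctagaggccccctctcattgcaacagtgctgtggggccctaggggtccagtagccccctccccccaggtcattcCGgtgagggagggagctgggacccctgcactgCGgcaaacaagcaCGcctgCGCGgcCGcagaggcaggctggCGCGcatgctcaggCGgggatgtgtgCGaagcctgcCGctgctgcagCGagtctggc

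The letters CG, which read the same on both strands, occurred 4 times before H19, 20 times before MEST and 12 times before SNRPN. Among 35114 such windows of all genes the median was 11, and 93.9% of them held at least 1. A count as high as that of H19 or higher was found in 70.7% of the windows, as high as that of MEST in 32.4% and as high as that of SNRPN in 48.5%. For the other starts, MEST windows held from 9 to 20 sites and SNRPN windows from 1 to 6. The windows shown for MEST and SNRPN thus held the highest count of each gene, which another MEST window shared. PLAGL1 windows held from 1 to 32 sites and GRB10 windows from 2 to 40. The richest GRB10 window, with 40, was matched or exceeded by 2.16% of all windows.

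H19 makes a long noncoding RNA that is abundant in the embryo and is shut down in most tissues after birth, and it hosts the microRNA miR-675. Its only probe set, 224646_x_at, was annotated to both H19 and MIR675, so the 2 transcripts cannot be told apart here. The ending x_at marks probes that can also match other transcripts. This limit holds for H19 and for every probe set below with that ending, among them those of SNRPN shared with SNURF alone and the brightest of PLAGL1. The mature forms that MIR675 gives are shown with bases 2 to 8, the seed that pairs with targets, in capitals. They come from chr11:1996800-1996822 and chr11:1996768-1996787 on the minus strand of GRCh38.p14 in RefSeq.
hsa-miR-675-5p: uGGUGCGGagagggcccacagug
hsa-miR-675-3p: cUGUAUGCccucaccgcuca
The seeds of the 2 arms differ.

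The H19 probe set stood at 11.45 in K562 cells given DAC. It was at 2.60 and 2.25 in the untreated K562 arrays, and at 2.25 with 25 µM hemin, with 50 µM hemin and with PMA. In HEL cells it was at 2.25 untreated, 3.74 with DAC and 2.25 with PMA. Of the 9 arrays, only the DAC array of K562 thus passed 5.

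The K562 DAC array exceeded the untreated mean by 9.03 on the log2 scale (SE 0.26), which was the largest positive difference among the 20260 probe sets kept in K562. Since the untreated arrays were below 5, the difference is better stated as a bound, at least 6.45. In the limma test over probe sets H19 had an adjusted p of 0.0651, which missed the threshold of 0.05. The probe set entered this test only through the array on which it was high, and its SE rests on values at or near the lowest. No probe set was called with DAC (0 of 20260, 0%), while 2213 had an unadjusted p under 0.05. The adjusted p for H19 ranged from 0.0192 to 0.694 over 11 other settings. It was under 0.05 in 5 of these and was lowest with an intensity trend.

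In HEL cells, at a DAC dose of 20 nM in place of 100 nM, the probe set stayed below 5. The lines got different doses, so line and dose cannot be told apart. As every other value was below 5, no size is given for the difference between the responses of the lines.

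**Figure D1:**
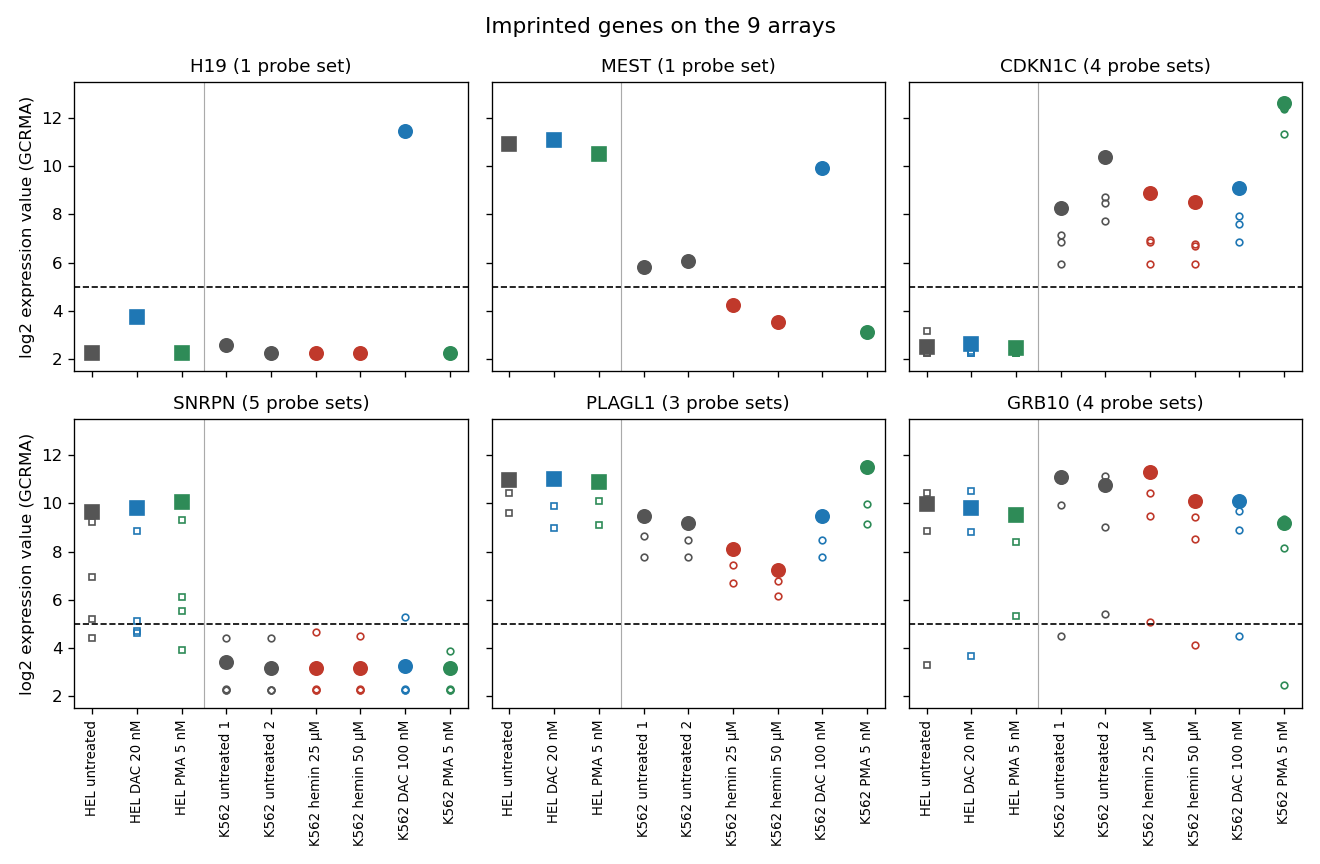
Each panel gives a gene's log2 expression value (y axis) on the 9 arrays (x axis), with squares for HEL, circles for K562, grey for untreated, red for hemin, blue for DAC and green for PMA. Large filled points are the brightest probe set, small open points the others, and the dashed line marks 5; H19 passes it on the DAC array of K562 alone, while CDKN1C passes it in K562 and the brightest SNRPN probe set in HEL.

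MEST, an enzyme of the alpha/beta hydrolase fold expressed in mesoderm of the embryo, has 1 probe set. In HEL cells it was high in every condition, at 10.91 untreated, 11.10 with DAC and 10.50 with PMA. In K562 cells it was at 5.80 and 6.06 untreated and at 9.92 with DAC. It was at 4.24 with 25 µM hemin, 3.51 with 50 µM hemin and 3.10 with PMA. The K562 values thus spread over 3 levels, with DAC near the HEL values, untreated cells just above 5, and the other treatments below it.

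With DAC the MEST value in K562 was 3.99 above the untreated mean (SE 0.40, adjusted p = 0.137 from limma), which ranked 39 of 20260 probe sets from the highest. The test called 6 of 9885 genes with DAC (0.0607%), all higher, and MEST was not among them. It was called only when each array was centred on its median (difference 4.03, adjusted p = 0.0355 in limma), and the adjusted p over all 12 other settings ran from 0.0355 to 0.739. In HEL the DAC difference was 0.19, and the response in K562 minus that in HEL was 3.80 (SE 0.61, adjusted p = 0.488 from limma, 0 of 10560 genes called, 738 with an unadjusted p under 0.05).

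With PMA, MEST fell in K562 by 2.83 on the log2 scale (SE 0.40, adjusted p = 0.0240 from limma), and by at least 0.93 when values below 5 are set to 5. It was the 1 called gene of the 4 tested here, where 1624 of 9885 genes (16.4%) were called. The call was lost without either untreated array or either hemin array, with adjusted p-values from 0.0789 to 0.156, and each of these fits called 0 genes in all, so no PMA call over genes in K562 outlasted the loss of 1 of these 4 arrays. In HEL the PMA difference was -0.41.

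In the comparison of the lines over the shared conditions, MEST was lower in K562, with a difference of -4.56 (SE 0.97, adjusted p = 0.0105 from limma). In that comparison 40.3% of 10560 genes were called, and of the 4 genes tested here 1 was higher in K562, CDKN1C, and 1 lower, MEST. By probe set, 4 of 18 were higher and 6 lower, where 37.1% of 21850 probe sets were called. All 4 of CDKN1C and 4 of those of SNRPN reached 5 in 1 line only, so they had to differ once kept, and the count by probe set supports nothing further. The 3 HEL arrays averaged 10.84 ± 0.30 (SD, n = 3) and did not overlap the 6 K562 arrays, of which the highest was 9.92. Without the untreated HEL array the adjusted p was 0.0687. COPG2, which overlaps MEST and codes for a coatomer subunit, went the other way, higher in K562 by 0.79 (adjusted p = 0.0123 from limma).

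CDKN1C codes for p57, an inhibitor of cyclin-dependent kinases that holds cells out of the cycle and limits growth of the embryo. All 4 of its probe sets were below 5 on all 3 HEL arrays and above 5 on all 6 K562 arrays. The brightest, 213348_at, was at 2.49 untreated, 2.63 with DAC and 2.45 with PMA in HEL. In K562 it was at 8.26 and 10.37 untreated, 8.88 with 25 µM hemin, 8.52 with 50 µM hemin, 9.11 with DAC and 12.61 with PMA. The untreated arrays were 2.11 apart on the log2 scale, and the hemin and DAC arrays lay between them. The other 3 probe sets were between 2.25 and 3.16 in HEL, between 5.94 and 8.71 in untreated K562, and at 12.42, 12.37 and 11.36 with PMA.

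The fitted K562 minus HEL difference was 7.72 in this probe set (SE 0.79, adjusted p = 0.00044 from limma). As the HEL values were below 5, the size is a bound, and the untreated K562 mean lay at least 4.32 above them. In the other 3 probe sets this bound was 2.93, 2.67 and 1.83. All 4 were kept only through K562, the line in which they were high.

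With PMA, CDKN1C was 3.29 above the untreated K562 mean (SE 0.96, adjusted p = 0.0944 from limma) in its brightest probe set, which missed the threshold. The other 3 probe sets rose by 4.49, 4.70 and 4.53, with adjusted p-values in limma from 0.0353 to 0.0435 in the test over 20260 probe sets, of which 13.8% were called. Of the 14 probe sets of these genes tested there, 3 were called higher, all of CDKN1C, and 1, that of MEST, was called lower. Names of these 3 end in x_at, which marks probes that can match other transcripts. The mean over all 4 probe sets rose by 4.25 (adjusted p = 0.0378 in limma). Leaving out the first or the second untreated array gave differences of 2.23 and 4.35 for the brightest probe set, and the others were not refitted in this way. Of 6 markers of other cell types tested with PMA in K562, PECAM1 (4.20) and KRT18 (1.18) were called higher and EPCAM (-2.64) lower. Over all genes 16.4% were called there. KRT8 (2.52), CD3D (1.79) and COL1A1 (0.27) were also higher but were not called. The part of these markers in the result was not tested.

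CDKN1C lies on chromosome 11 in a cluster with PHLDA2, a maternally expressed restrainer of placental growth, and KCNQ1OT1, the paternally expressed antisense RNA of the cluster. PHLDA2 was at 8.85 and 9.61 in untreated K562 and 11.71 with PMA, and at 2.77 in untreated HEL and 5.51 with PMA. Over both lines it rose with PMA by 2.58 (SE 0.41, adjusted p = 0.0381 from limma), where 208 of 10560 genes were called (1.97%). In HEL PHLDA2 was below 5 untreated and with DAC (2.83), so this size is not exact. In K562 alone the difference was 2.48 and was not called (adjusted p = 0.0789 from limma). KCNQ1OT1 was at 4.09 and 4.46 in untreated K562 and 5.97 with PMA, and at 4.31 in untreated HEL and 5.42 with PMA. It rose with PMA over both lines by 1.43 (adjusted p = 0.0470 from limma) and in K562 alone by 1.69 (adjusted p = 0.0294 from limma), from levels below 5, so that the sizes are not exact. KCNQ1OT1 reached 5 on the PMA arrays alone and entered both tests only through them, so its calls support nothing further. Both genes were thus higher on the PMA array in each line, whereas CDKN1C stayed below 5 in HEL with PMA. The number of genes called with PMA over both lines was between 1 and 119 when 1 array was left out.

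SNRPN codes for SmN, a protein of the spliceosome, from a long transcript unit on chromosome 15 that also holds SNURF, IPW and the SNORD116 and SNORD115 small nucleolar RNAs. All 5 of its probe sets named other genes too, 2 of them SNURF alone and 3 the small nucleolar RNAs and IPW. The brightest, 201522_x_at, was at 9.63 untreated, 9.81 with DAC and 10.08 with PMA in HEL. On the 6 K562 arrays it lay between 3.15 and 3.44. The other probe set shared with SNURF alone, 206042_x_at, was between 8.86 and 9.30 in HEL and between 2.25 and 2.30 in K562. Of those shared with the small nucleolar RNAs, 221974_at was at 6.95 untreated, 5.14 with DAC and 6.11 with PMA in HEL, and at 2.25 on all 6 K562 arrays. The last, 213447_at, was at 5.21, 4.63 and 5.52 in HEL and 2.27 in K562. In the first 3 of these every HEL array was above 5 and every K562 array below it, while 213447_at was below 5 in HEL with DAC too.

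K562 was lower than HEL in the brightest probe set, with a difference of -6.57 (SE 0.20, adjusted p = 2.44e-06 in limma over probe sets), or by at least 4.84 with values below 5 set to 5. It was kept only through the HEL arrays, where it was high. In 4 of the 5 probe sets the difference was called, all lower in K562 and all 4 kept only through HEL. The fifth, 1559343_at, was between 3.87 and 5.29 on all 9 arrays and was not called (0.17, adjusted p = 0.553 from limma). It passed 5 on the DAC array of K562 alone, at 5.29 against 4.43 on both untreated arrays (adjusted p = 0.416 from limma). The probe sets shared with SNURF were below 5 with DAC as with every other treatment in K562, unlike H19 and MEST on the same array.

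PLAGL1, a zinc finger transcription factor that can arrest the cell cycle, was above 6 on every array in all 3 probe sets. The brightest, 209318_x_at, was between 10.91 and 11.01 in HEL. In K562 it was at 9.48 and 9.19 untreated, 9.49 with DAC, 8.10 with 25 µM hemin, 7.24 with 50 µM hemin and 11.49 with PMA. Both hemin arrays lay below both untreated arrays, and the PMA array above them, in each of the 3 probe sets.

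The PMA difference of PLAGL1 in K562 was 2.16 (SE 0.45, adjusted p = 0.0516 from limma), just over the threshold, and the other probe sets gave 1.41 and 1.38. The adjusted p was under 0.05 in 5 of 12 other settings and ran from 0.0244 to 0.218. In HEL the PMA difference was -0.07. HYMAI, the noncoding RNA that starts within the PLAGL1 locus, has 1 probe set, which did not reach 5 on any array. Between the lines the PLAGL1 difference was -0.94 (SE 0.46, adjusted p = 0.149 from limma), while 207002_s_at was called lower in K562 (-1.20, adjusted p = 0.0364 in limma over probe sets). Without the PMA array of K562 the difference was -1.59, and it passed the threshold (adjusted p = 0.0117 in limma). Leaving out the PMA array of HEL gave the same difference.

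GRB10, an adaptor protein that binds the insulin and IGF1 receptors and damps their signal, was high in both lines. Its brightest probe set, 210999_s_at, was at 9.99 untreated, 9.81 with DAC and 9.50 with PMA in HEL. In K562 it was at 11.08 and 10.76 untreated, 11.30 with 25 µM hemin, 10.08 with 50 µM hemin, 10.12 with DAC and 9.17 with PMA. No comparison called it. The largest difference was with PMA in K562, -1.75 (SE 0.59, adjusted p = 0.122 from limma), and 209409_at and 209410_s_at gave -1.73 and -1.33, neither called. In HEL the PMA differences of these 3 probe sets were between -0.97 and -0.47. With DAC in K562 the same probe sets gave -0.80, -1.39 and -0.58, and none was called. The dimmest, 215248_at, was below 5 on 6 of the 9 arrays and reached 5.31 in HEL with PMA, from 3.28 untreated.

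**Figure D2:**
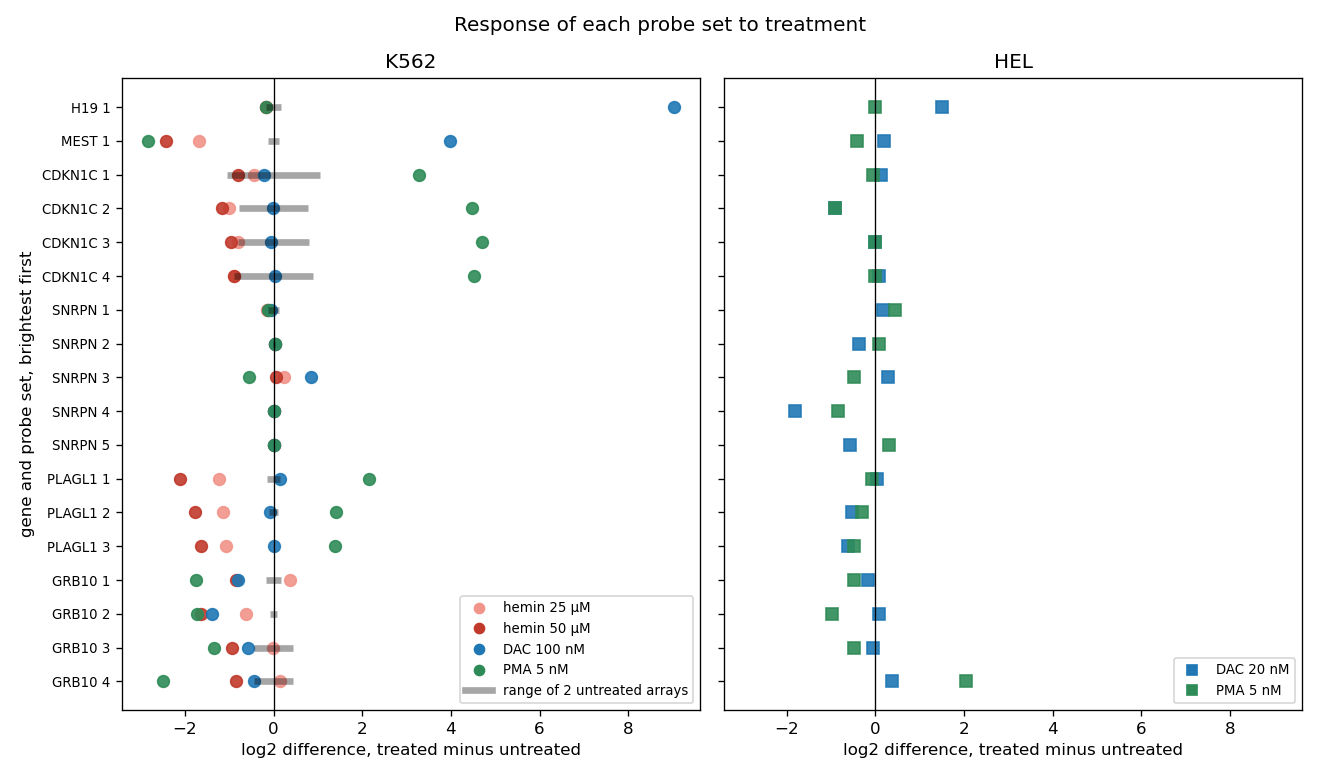
Each row is a probe set, and points give the log2 difference from untreated cells (x axis) for each treatment, in K562 (left) against the mean of both untreated arrays and in HEL (right) against the untreated array. The grey bar is the range of the untreated K562 arrays about their mean; it is widest for CDKN1C, where they were 2.11 apart, and H19 with DAC lies farthest from 0 at 9.03.

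Hemin was tested as 1 group of both doses against the untreated arrays of K562. It called 0 of 9885 genes (0%), with 1010 at an unadjusted p under 0.05 and a smallest adjusted p of 0.211, so no difference with hemin below passed the test. MEST differed from the untreated mean by -1.69 at 25 µM and -2.42 at 50 µM (both doses together -2.05, SE 0.32, adjusted p = 0.472 from limma). PLAGL1 differed from it by -1.24 and -2.10 (both doses together -1.67, SE 0.37, adjusted p = 0.474 from limma).

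Both MEST values with hemin were below 5, so they have no order between the doses and bound the MEST difference only at 0.93 below the untreated mean, which is under 2-fold. PLAGL1 was over 2-fold lower at both doses, 1 of 4 tested genes, where 5.52% of all genes were over 2-fold apart from the untreated mean at 25 µM and 15.8% at 50 µM. In all 3 PLAGL1 probe sets the value at 50 µM was below that at 25 µM. CDKN1C, with differences of -0.43 and -0.80, stayed within the range of its untreated arrays in the brightest probe set. In 213182_x_at both hemin arrays, at 6.93 and 6.77, lay below the untreated ones, at 7.16 and 8.71. GRB10 differed by 0.38 and -0.84 in its brightest probe set and by -0.61 and -1.63 in 209409_at. The others gave -0.0018 and -0.94 in 209410_s_at and 0.15 and -0.83 in 215248_at, which was near or below 5. With the dose as a number the hemin fit called no gene of the 4 either.

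**Figure D3:**
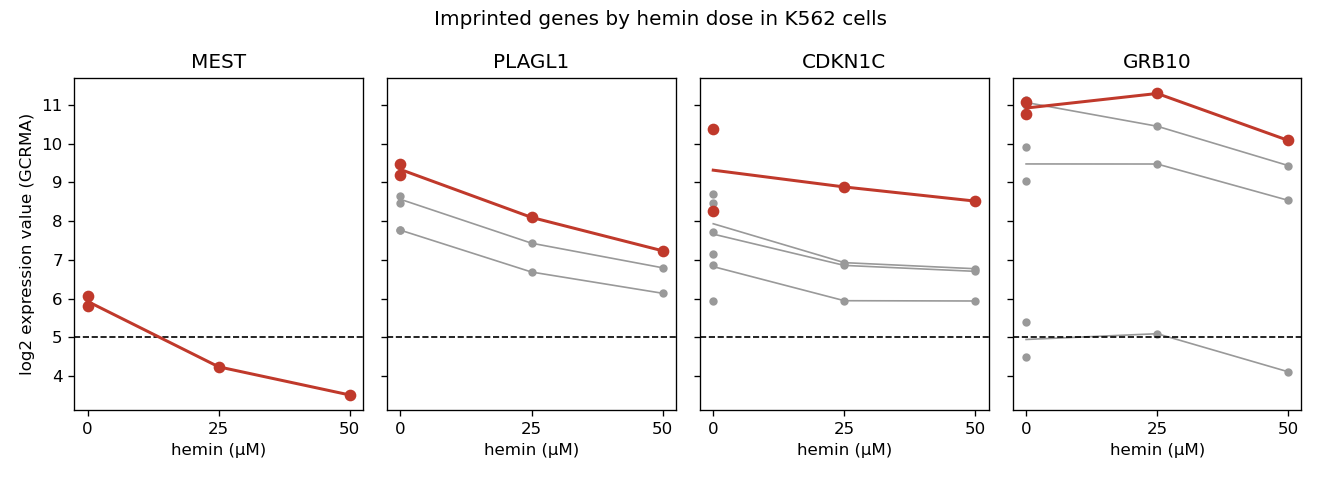
Log2 expression value (y axis) against hemin dose in µM (x axis) in K562 cells, with red for the brightest probe set, grey for the others, points for single arrays and lines through the mean of the 2 untreated arrays and each dose. PLAGL1 lies at 9.34 without hemin and 7.24 at the higher dose, and MEST is below 5, marked by the dashed line, at both doses.

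In HEL cells every condition has 1 array and carries no test. Of the 3 genes measured there, MEST, PLAGL1 and GRB10, none was over 2-fold apart from the untreated array with DAC, where 2.68% of 9630 genes were. With PMA none of these was either, where 13.4% of genes were. Other probe sets did pass 2-fold. For SNRPN, 221974_at differed by -1.82 with DAC, while the probe sets shared with SNURF alone gave 0.18 and -0.36. For GRB10, 215248_at differed by 2.03 with PMA, from a value below 5, whereas its other probe sets were lower. Across both lines the additive fit called none of the 4 tested genes with DAC (0 of 10560 genes in all, 0%, with 479 at an unadjusted p under 0.05) and none with PMA.

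Beyond the 10 genes, 52 other imprinted genes were listed, of which 22 had a kept probe set of their own over the 9 arrays and 18 in K562. Between the lines 7 were higher and 7 lower in K562, 14 of 22 against 40.3% of all genes. Of the 14, MEG3, PPP1R9A, ZNF331, SGCE and GNAS-AS1 reached 5 in 1 line only and so had to differ once kept. With both lines above 5, DLK1 (3.47), IGF2R (3.38), BLCAP (1.55), INPP5F (1.25) and COPG2 (0.79) were higher in K562. PHLDA2, above 5 in HEL with PMA alone, and MEG3, between 6.40 and 9.14 in K562 and below 5 in HEL, were also higher there. MEG3, a maternally expressed noncoding RNA, and DLK1, a paternally expressed Notch ligand relative, belong to the same cluster on chromosome 14. RB1 (-0.93) and NAP1L5 (-0.84) were lower in K562, and so was OSBPL5 (-1.25), which was near 5 there. PPP1R9A was between 7.87 and 8.12 in HEL and ZNF331 between 6.31 and 6.83, while both were below 5 on all 6 K562 arrays. SGCE, the neighbour of PEG10, passed 5 in HEL with PMA alone, at 5.36, and GNAS-AS1 in untreated HEL alone, at 5.73, so no size is given for them.

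Of these 18 genes in K562, none was called with hemin (0% of all genes) or DAC (0.0607%), and KCNQ1OT1 alone with PMA, where 16.4% of all genes were called. KCNQ1OT1 was kept in K562 only through the PMA array, where it was high. The median difference of the 18 genes with PMA was 0.53, against -0.09 over all genes. The largest differences with DAC were DIRAS3 at -2.08, NAP1L5 at 1.48 and MEG3 at 1.44, none of which passed the test. DIRAS3 and MEG3 rest on untreated arrays that disagreed, at 2.77 and 7.01 and at 6.97 and 8.42. NAP1L5 was at 8.38 and 8.63 untreated, 9.05 and 9.25 with hemin, 9.98 with DAC and 9.64 with PMA, and between 10.01 and 10.31 in HEL. All treated K562 arrays thus lay above the untreated ones. With hemin DLK1 was at 10.81 and 9.16 against 11.94 and 12.53 untreated, a difference of -2.25 (adjusted p = 0.484 from limma).

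**Figure D4:**
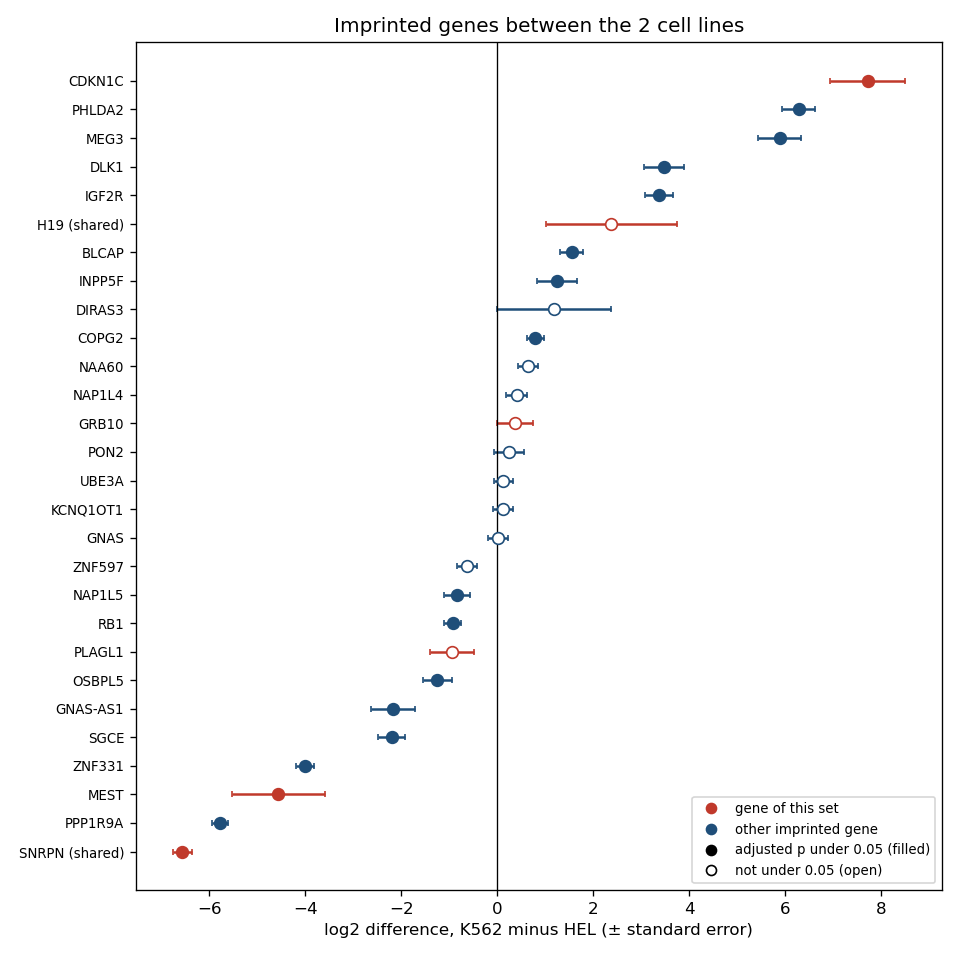
Log2 difference of K562 minus HEL (x axis) with its standard error for each tested gene (y axis), red for the 10 named genes and blue for other imprinted genes, filled where the adjusted p was under 0.05. H19 and SNRPN are probe sets shared with other genes; CDKN1C at 7.72 and SNRPN at -6.57 lie at the ends, and values below 5 entered the fit as they are, so sizes against a line below 5 are not exact.

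Of 21 genes listed for imprint maintenance and DNA methylation, 16 were tested. The list mixes genes that set or keep DNA methylation with others that do not, such as TET1. Its counts therefore give no direction for methylation. With PMA in K562, 5 were called lower and none higher, 5 of 16 where 16.4% of all genes were called. These were TET1, which oxidizes 5-methylcytosine (-3.91, adjusted p = 0.00735 in limma), CTCFL, the germline paralog of CTCF (-3.09, adjusted p = 0.0161 in limma), UHRF1 (-2.99, adjusted p = 0.0190 in limma), DNMT1 (-1.66, adjusted p = 0.0215 in limma) and SMCHD1 (-1.17, adjusted p = 0.0477 in limma). All 5 calls rest on the fit that called 0 genes without 1 of the untreated or hemin arrays. TET1 ended below 5, at 4.73. Over both lines TET1 alone was called with PMA, but its HEL values were below 5 on all arrays, so no change can be read in HEL.

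With DAC, the enzyme DAC traps, DNMT1, was at 12.31 against 12.52 and 12.58 untreated in K562 and at 12.98 against 13.32 in HEL, and no gene of the list was called. UHRF1 was at 12.38 against 11.55 and 10.97. CTCFL was between 8.35 and 11.72 on the K562 arrays and below 5 on those of HEL. TET1 was likewise below 5 in HEL and between 4.73 and 9.08 in K562.

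The IGF2 axis, which holds the receptors, binding proteins and RNA-binding regulators around the fetal growth factor IGF2, gave 12 tested genes of 15. Between the lines 7 were called higher in K562 and 3 lower, where 40.3% of all genes were called. Of the 7, IGF1, INSR and IRS1 were below 5 on every HEL array, so they were kept only through K562 and had to differ. IRS1, the insulin receptor substrate, was the 1 gene of 12 called with PMA in K562, where 16.4% of all genes were, from 7.69 and 8.08 to 10.46 (2.58, adjusted p = 0.0251 in limma). IGF1 was at 8.38 and 9.92 untreated and 5.37 with DAC, which was not called (-3.78, adjusted p = 0.423 from limma). IGFBP4 was at 11.08 and 9.68 untreated, 7.86 and 5.30 with hemin and 12.37 with PMA, and none of these differences was called.

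Germline genes known to be switched on by loss of DNA methylation were listed for comparison with H19 and MEST, and 5 of 28 were tested in K562. None was called with DAC. Their median DAC difference was 0.54, against -0.02 over all genes, and the largest was MAGEC1 at 1.09. Those tested were already expressed in untreated K562, the lowest MAGEC2 at 8.15 and 7.73. Other listed genes started below 5 as H19 did and stayed there with DAC. MAGEA1 was at 3.53 and 3.15 untreated and 3.97 with DAC in K562, and MAGEB2, SSX1 and TEX14 did not reach 5 on any array. MAGEC2 rose with PMA by 1.60 (adjusted p = 0.0418 in limma). Between the lines 5 of 6 were higher in K562 and MAGEA1 was lower, where 40.3% of all genes were called. MAGEC1, MAGEC2 and CTAG2 were below 5 on every HEL array and MAGEA1 on every K562 array, so these had to differ once kept. Of 11 erythroid and megakaryocytic markers, 1 was higher and 6 lower in K562, against the same 40.3% of all genes. Of the 6, PF4 was below 5 on every K562 array and so had to differ once kept. GFI1B alone of the markers was called with PMA over both lines (1.33, adjusted p = 0.0486 in limma).

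For the 3 genes with the widest spread over the 9 arrays, the genes with the most similar pattern were found by Pearson correlation. The arrays share lines and treatments, so r describes the pattern of these arrays and carries no test. For CDKN1C these were XIAP (r = 0.994), P4HA2 (r = 0.987) and AP3D1 (r = 0.986). For MEST they were TBC1D1 (r = 0.984), POMZP3 (r = 0.981) and RAB3IP (r = 0.972). For the brightest SNRPN probe set they were APBB1IP, CPVL and TGFB1I1, with r of 0.9997, 0.9997 and 0.9996. These 3 genes were between 2.25 and 2.77 on the K562 arrays and at 8.73 or more in HEL. Like SNRPN, they were thus below 5 in K562 alone, so r near 1 follows from the split between the lines and supports nothing further. TBC1D1 was between 9.07 and 9.26 in HEL, at 8.06 and 7.71 in untreated K562, 9.05 with DAC, 7.29 and 6.84 with hemin and 7.07 with PMA. As with MEST, the DAC array was the highest of K562 and the hemin and PMA arrays lay below the untreated ones.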

How the data were processed

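Total RNA of K562 and HEL cells was hybridised to Affymetrix arrays. The authors deposited 1 log2 expression value per probe set and array, with GCRMA named in the submitters' notes and no version stated. GCRMA corrects background from probe sequence, normalizes by quantiles and summarizes probes, so that a shift shared by most genes would be removed. The number of arrays limits the precision, and the scanner values were not used here.

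Probe sets were named from the platform annotation, 22858 with 1 gene, 1164 with several and 3284 not listed. Each gene was represented by its brightest probe set naming 1 gene and reaching 5 on at least 1 array. Comparisons were fitted with limma 3.58.1 (lmFit and eBayes) in R 4.3.3 across all genes, or all probe sets for those shared by several genes, with Benjamini-Hochberg adjustment and a threshold of 0.05. The 6 K562 arrays were fitted in 4 groups, and all 9 arrays with line and treatment as additive terms. A treatment with 1 array is assumed to vary like the others. The difference in response between lines was an added fit, chosen after seeing the data. The limma fits were tested on simulated data.

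The genes, the lists and the alternatives were chosen with earlier results of these data known. Named from other lists were genes past the test in a comparison, otherwise up to 4 with the largest difference, neighbours of the 10 genes, and, for the 3 genes with the widest spread, the 3 best correlated genes. Each result was recomputed with arrays centred on their medians, with quantile normalization, with filters at 4 and 6 and none, and with the mean of probe sets, each probe set alone, an intensity trend, each array left out, the hemin dose as a number, the untreated and hemin arrays alone, and untreated arrays alone between lines. RefSeq windows (GRCh38.p14) were found for 6 of the 10 genes.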

Additional observations from a re-analysis of the deposited data

How the results depend on the processing

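Of 376 recomputed differences of the 4 genes and of the H19 and SNRPN probe sets, 348 kept their direction and their side of the threshold, 6 lost a call, 14 gained one and 8 changed sign. None of the 8 was called. The number of genes called with DAC in K562 was 6 and became 26 with quantile normalization, 39 with centring, 16 with the filter at 6, 11 with no filter, 21 with the mean of probe sets, 0 for probe sets alone and 25 with an intensity trend. It ran from 0 to 26 with 1 array left out. Of the 4 genes, centring called 1, MEST. With PMA in K562, 1624 genes became 2786 probe sets, and 0 to 1668 genes with 1 array left out. Of the 4 genes, PMA called 2 with quantile normalization, centring, the filter at 6, the mean, each probe set alone or the trend, and 0 with no filter, where MEST had an adjusted p of 0.0585 in limma. It called 0 to 2 with 1 array left out. For hemin, centring called 1 gene. For DAC over both lines, quantile normalization and centring called 1 each. PMA over both lines called 1 to 119 genes with 1 array left out. Between lines, 4255 genes became 8100 probe sets, 2136 genes from untreated arrays alone and 2678 to 4230 with 1 array left out. Of the 4 genes 2 were called there, and 1 to 3 with 1 array left out. Counting genes with any called probe set gave 4, with PLAGL1 and SNRPN added.

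Sign changes came mostly from leaving out 1 array. The differences then ranged from -1.67 to 0.44 for CDKN1C with hemin, -0.84 to 0.38 for GRB10 with hemin, -1.27 to 0.85 for CDKN1C with DAC, -0.57 to 0.71 for CDKN1C with DAC over both lines and -0.013 to 0.66 for GRB10 between lines. PLAGL1 with DAC over both lines was -0.057 with the mean of probe sets against 0.21. The cause of these changes was not tested. No paired analysis was possible because the labels give no replicate numbers shared by groups.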
